A study of Homo sapiens with 36 samples.

Results

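The genes described here handle haem and iron. They are 10 of the 26485 gene symbols counted in the study and were picked by symbol: SLC48A1, HMOX1, HMOX2, FLVCR1, ALAS1, FECH, FTH1, FTL, TFRC and IREB2. The choice was made with results of these libraries known, so the list is no independent evidence of any direction. SLC48A1 leads it and is therefore given as levels and differences without a test, while the other 9 genes were tested within fits over all genes.

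The study profiled mRNA and its ribosome loading in the human breast cancer line MDA-MB-231, of the triple-negative type, which the labels also call a xenograft line. All cells carried a CRISPR interference (CRISPRi) construct, which represses a locus without cutting it, together with an overexpression construct. The UAU line had CRISPRi against eGFP, which served as the control target, and overexpressed tRNAIleUAU, an isoleucine tRNA whose anticodon is UAU. The GAUi line had CRISPRi against the Ile GAU tRNA and the control overexpression construct. The isoswitch line had both changes, CRISPRi against Ile GAU and tRNAIleUAU overexpression. The control line had CRISPRi against eGFP and the control overexpression construct. Each line gave a high-translating fraction (more than 2 polysomes), a low-translating fraction (the 80S monosome and the first polysome peak) and total input RNA, each with replicates A, B and C. That made 36 libraries in 12 groups of 3. Cells of every group were held in 100 ug/mL cycloheximide, which stalls ribosomes, for 5 minutes before they were frozen. Libraries were made from 500 ng RNA with a 3' end kit. The labels do not say whether the cell lines were clones or whether A, B and C came from separate cultures, so the p-values cover the spread among these libraries alone, which may be technical.

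Library totals ran from 5192464 to 8974001 counts. VIM, a mesenchymal gene typical of MDA-MB-231, lay between 2749 and 3720 CPM (counts of a gene per library, put on a shared scale) in total RNA, and the oestrogen receptor gene ESR1 lay between 0 and 0.150 CPM. The 7 luminal breast markers, ESR1 among them, summed to between 38.2 and 48.7 CPM. Of these, GATA3 (12.9 to 23.6 CPM), EPCAM (10.8 to 17.7) and ERBB2 (7.53 to 15.4) were present, while PGR, CDH1 and FOXA1 reached at most 0.824 CPM. Markers of other cells that handle haem and iron were low in total RNA. The 11 erythroid markers summed to between 0 and 0.404 CPM, with 5 of them at 0 in all 12 libraries. The 8 macrophage and leukocyte markers summed to between 6.12 and 11.03 CPM, the 6 fibroblast markers to between 2.06 and 5.68 CPM and the 6 endothelial markers to between 2.52 and 5.00 CPM.

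Haem is made in mitochondria and the cytosol from glycine and succinyl-CoA, starting with ALAS1 and ending with FECH, which inserts iron into the ring. SLC48A1 (also called HRG1) carries haem out of endolysosomes into the cytosol, where the haem oxygenases HMOX1 and HMOX2 open the ring and release its iron. Iron enters cells with transferrin through TFRC and is stored in the ferritin shell built from FTH1 and FTL. When iron is scarce, the iron regulatory proteins, among them the IREB2 product IRP2, bind hairpins called iron-responsive elements (IREs). Binding at the 5′ end of ferritin mRNAs blocks their translation, and binding at the 3′ end of TFRC mRNA protects it from decay.

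The IRE loop begins with the bases CAGTG, and the ferritin light chain gene carries it near its start. The 30 bases of FTL shown here, with CAGTG in capitals, lie at chr19:48965329-48965358 on the plus strand (GRCh38.p14, RefSeq) and end 50 bases into the transcript. They are shown because the loading of ferritin mRNAs on ribosomes is described in what follows.
FTL: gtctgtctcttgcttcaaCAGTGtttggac
The same letters on the sense strand stood in the first 50 transcribed bases of 6.48% of 35116 RefSeq start sites, and of FTL alone among the 8 genes of the list with an entry. HMOX1 and FTH1 were not searched. A match of 5 letters is a description and not a test of binding. The 250 bases before an annotated SLC48A1 start, at chr12:47772988-47773237 on the plus strand, are shown for the gene that leads the list. They lie inside the annotated span of the gene (chr12:47753934-47782751), so this start is not its outermost one. Which start these cells use was not tested. Capitals mark the GC-box letters GGGCGG, found in 4 copies when both strands were searched.
SLC48A1: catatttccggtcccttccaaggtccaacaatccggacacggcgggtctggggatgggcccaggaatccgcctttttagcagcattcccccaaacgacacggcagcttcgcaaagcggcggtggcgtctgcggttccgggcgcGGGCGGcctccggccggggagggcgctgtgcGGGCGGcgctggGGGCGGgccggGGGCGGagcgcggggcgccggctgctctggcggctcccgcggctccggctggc
GGGCGG was present before the start of all 8 genes with an entry and of 42.6% of all entries. The letters TGACNNNGC, the core of the antioxidant response element, were present on either strand before FECH alone of the 8 genes and in 10.9% of all entries.

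All 10 genes were counted in all 36 libraries and passed the filter on low counts in every fit. FTH1 (chr11:61964285-61967634) and FTL (chr19:48965309-48966879) had between 1163 and 32804 counts in a library. SLC48A1 (chr12:47753934-47782751) had between 97 and 339 counts. The lowest counts were 17 for FECH (chr18:57544377-57586702), 27 for FLVCR1 (chr1:212858275-212899363) and 30 for HMOX1 (chr22:35381096-35394207), so their values were the least precise. HMOX2 spans chr16:4474736-4510347, ALAS1 chr3:52198083-52214327, TFRC chr3:196049284-196082090 and IREB2 chr15:78437431-78501453 (GRCh38.p14). In that annotation SLC48A1 overlaps RAPGEF3 by 4947 bases and HDAC7 by 30 bases, FTH1 overlaps BEST1 by 1231 bases, and HMOX2 overlaps NMRAL1 by 1602 bases. The strand setting of the counting is not given in the sources used here, so reads of such partners cannot be told apart with certainty. Ferritin has many pseudogenes, and how reads shared with them were counted is not given either. The symbols FTH1P3 and FTLP10 held 137 and 6 counts over all libraries, and FTH1P18 and the ferritin-like FTHL17 held 0.

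**Figure D1:**
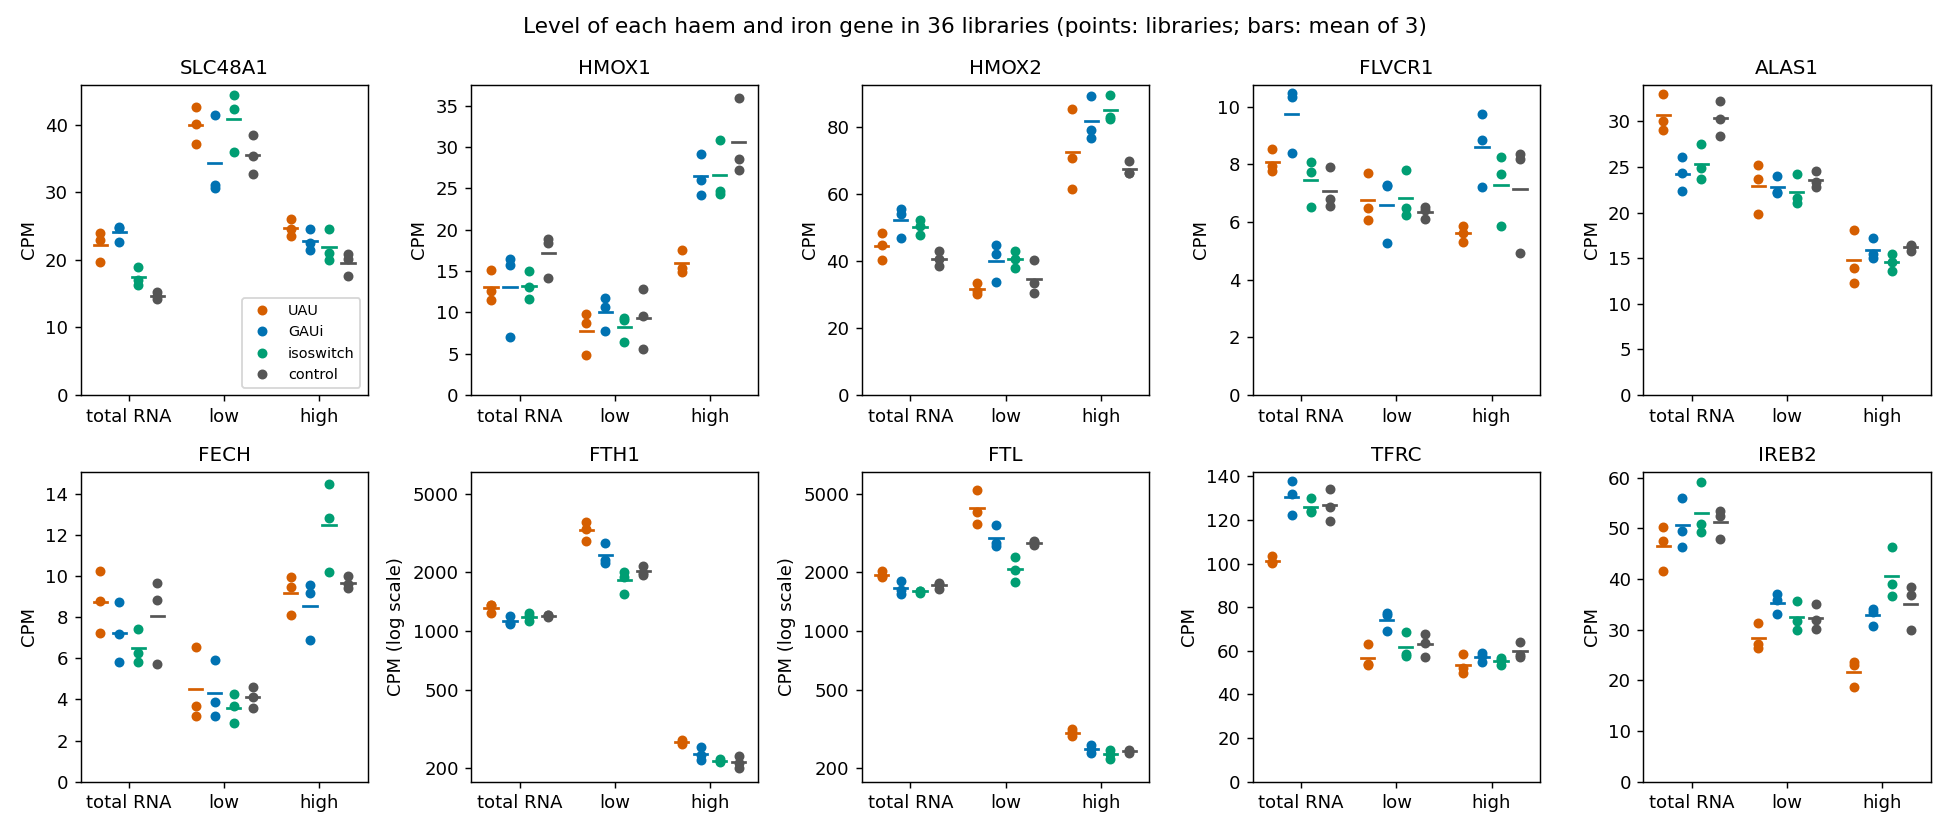
Level of each gene in the 36 libraries, in CPM, by fraction (total RNA, low-translating, high-translating) and line, where points are libraries and bars are means of 3. FTH1 and FTL have a log axis, and lie between 200 and 314 CPM in the high fraction and between 1543 and 5257 CPM in the low fraction, while SLC48A1 in total RNA reaches 15.2 CPM in control libraries and is at least 16.2 CPM in all others.

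SLC48A1 mRNA was higher in total RNA of all 3 changed lines than in control, and most in the lines with a single change. Its level was 23.95, 22.99 and 19.6 CPM in UAU libraries A, B and C, 22.7, 24.7 and 24.9 CPM in GAUi libraries and 18.99, 16.2 and 16.99 CPM in isoswitch libraries, against 15.2, 14.3 and 14.7 CPM in control libraries. Every library of each changed line lay above every control library, and every UAU and GAUi library lay above every isoswitch library. Means were 22.2 ± 2.26 CPM in UAU, 24.1 ± 1.21 in GAUi and 17.4 ± 1.43 in isoswitch, against 14.7 ± 0.485 in control (SD, n = 3 each). The ratio to control was 1.51 in UAU, 1.64 in GAUi and 1.18 in isoswitch. The order of the line means was GAUi, UAU, isoswitch and control. GAUi and UAU libraries overlapped, and no other neighbours in that order did. As a background, 9.78% of genes in UAU, 13% in GAUi and 12.6% in isoswitch had all 3 libraries above all control libraries in total RNA. How many genes lay apart between changed lines was not counted, here or in what follows. The log2 fold change against control was 0.62 in UAU, with 1.97% of genes higher, 0.70 in GAUi, with 1.8% higher, and 0.26 in isoswitch, with 13.5% higher. These 3 values share the control libraries and, since they may have guided the choice of the gene, are a description.

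In the low-translating fraction the lines overlapped for SLC48A1. It had 42.6, 40.2 and 37.1 CPM in UAU, 31.1, 41.5 and 30.7 CPM in GAUi and 42.3, 44.4 and 36.04 CPM in isoswitch, against 32.7, 38.5 and 35.3 CPM in control. The 4 lines ran in the order isoswitch, UAU, control and GAUi by mean, and all neighbours in that order overlapped. In the high-translating fraction SLC48A1 had 26.1, 24.6 and 23.6 CPM in UAU, 22.5, 21.4 and 24.6 CPM in GAUi and 24.6, 20.04 and 20.99 CPM in isoswitch, against 20.9, 20.1 and 17.6 CPM in control. Every UAU and GAUi library lay above every control library there, as did 17.7% and 14.9% of genes, whereas isoswitch and control overlapped. The order by mean was UAU, GAUi, isoswitch and control, and each neighbouring pair overlapped. The log2 fold change in the high fraction was 0.35 in UAU, 0.22 in GAUi and 0.15 in isoswitch.

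Within each line SLC48A1 was lower in the high than in the low fraction. In control cells it averaged 19.5 ± 1.72 CPM in the high fraction against 35.5 ± 2.90 CPM in the low fraction (SD, n = 3 each), with no overlap, and 14.7 CPM in total RNA. The share of all genes whose fractions did not overlap was not counted. The log2 fold change of high against low was -0.65 in UAU, -0.60 in GAUi and -0.94 in isoswitch, against -0.92 in control, where 18% of genes had a lower value. When the high fraction was set against total RNA instead, SLC48A1 was not lower except in GAUi. The values were 0.16 in UAU, -0.08 in GAUi and 0.32 in isoswitch, against 0.40 in control. The 5 genes whose level most resembled that of SLC48A1 over the 36 libraries, on log2 CPM centred within each fraction and among 8857 genes, were SYS1-DBNDD2 (Pearson r 0.622), DBNDD2 (0.621), DGAT2 (0.617), CRYL1 (0.617) and KLHL36 (0.616). The first 2 are a readthrough transcript and a gene it contains, so they share reads. Libraries of a group share their line and fraction, so these correlations are a description. Within the list, the r of SLC48A1 ran from -0.41 with HMOX1 to 0.29 with HMOX2 on the same measure.

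Ferritin mRNAs were far lower in the high-translating than in the low-translating fraction of every line, by 8.31 to 14.1 times. In control cells FTH1, the heavy chain with the ferroxidase site, had 200, 230 and 211 CPM in the high fraction, against 1936, 1964 and 2144 CPM in the low fraction. FTL, the light chain, had 239, 243 and 248 CPM in the high fraction, against 2740, 2875 and 2844 CPM in the low fraction. The fractions did not overlap for either gene in any line, but the share of all genes without such overlap was not counted. In control cells 6 of the 9 tested genes differed between the fractions, 3 higher and 3 lower in the high fraction, where 66% of all genes tested passed (edgeR quasi-likelihood test, adjusted p under 0.05). The log2 fold change of FTH1 was -3.31 (SE 0.0886, adjusted p = 5.07e-13), and that of FTL was -3.60 (SE 0.0833, adjusted p = 1.29e-13). Of 12266 genes tested in control cells, 104 (0.848%) had a lower value than FTH1 and 68 (0.554%) a lower value than FTL. Set against total RNA in control cells, FTH1 was higher in the low fraction by 0.81 and lower in the high fraction, with a log2 fold change of -2.50. FTL likewise stood at 0.77 and -2.83. CPM is a share of the mRNA of its own fraction, so these values do not give the share of a gene's transcripts in each fraction.

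The ferritin difference was present in all 4 lines. High-fraction FTH1 was below low-fraction FTH1 by 12.02 times in UAU, 10.4 times in GAUi and 8.31 times in isoswitch, against 9.44 times in control, as the ratio of mean CPM, low over high. For FTL the same ratio was 14.1 in UAU, 11.97 in GAUi and 8.79 in isoswitch, against 11.6 in control. On the log2 scale, high against low FTH1 was -3.55 in UAU, -3.38 in GAUi and -3.10 in isoswitch, against -3.31 in control. FTL was -3.78 in UAU, -3.58 in GAUi and -3.18 in isoswitch, against -3.60 in control. Between 30 genes (FTL in UAU, of 12402) and 171 genes (FTH1 in isoswitch, of 12312) had a lower value. In the comparison of fractions, 67% of genes passed in UAU, 64.8% in GAUi and 70.5% in isoswitch, and 7 of the 9 genes passed in each.

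Other members of the list were loaded differently. HMOX1, the inducible haem oxygenase, was higher in the high than in the low fraction of control cells (30.6 ± 4.72 against 9.30 ± 3.64 CPM, SD, n = 3 each), with a log2 fold change of 1.64 (SE 0.218, adjusted p = 8.5e-06). HMOX2, its paralogue, was higher by 0.90 (SE 0.109, adjusted p = 3.35e-06), and FECH by 1.16 (SE 0.225, adjusted p = 0.000316). ALAS1 was lower, at -0.61 (SE 0.115, adjusted p = 0.000245). These 4 directions, and their calls, were the same in the other 3 lines. When the high fraction was set against total RNA instead, FECH lost its call in UAU (0.07, adjusted p = 0.794), GAUi (0.23, adjusted p = 0.417) and control (0.24, adjusted p = 0.312), and HMOX1 lost its call in UAU (0.29, adjusted p = 0.161). TFRC (-0.14, adjusted p = 0.214), IREB2 (0.05, adjusted p = 0.739) and FLVCR1 (0.13, adjusted p = 0.599) did not pass in control. FLVCR1 passed in no line, TFRC passed in GAUi alone (-0.38, adjusted p = 0.00328), and IREB2 passed in UAU (-0.33, adjusted p = 0.0266) and isoswitch (0.28, adjusted p = 0.0314). The IREB2 calls were lost in UAU with no filter on low counts and without low library A or high library B, and in isoswitch with DESeq2 and without low library B or C or high library C (adjusted p up to 0.154 in UAU and 0.172 in isoswitch).

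**Figure D2:**
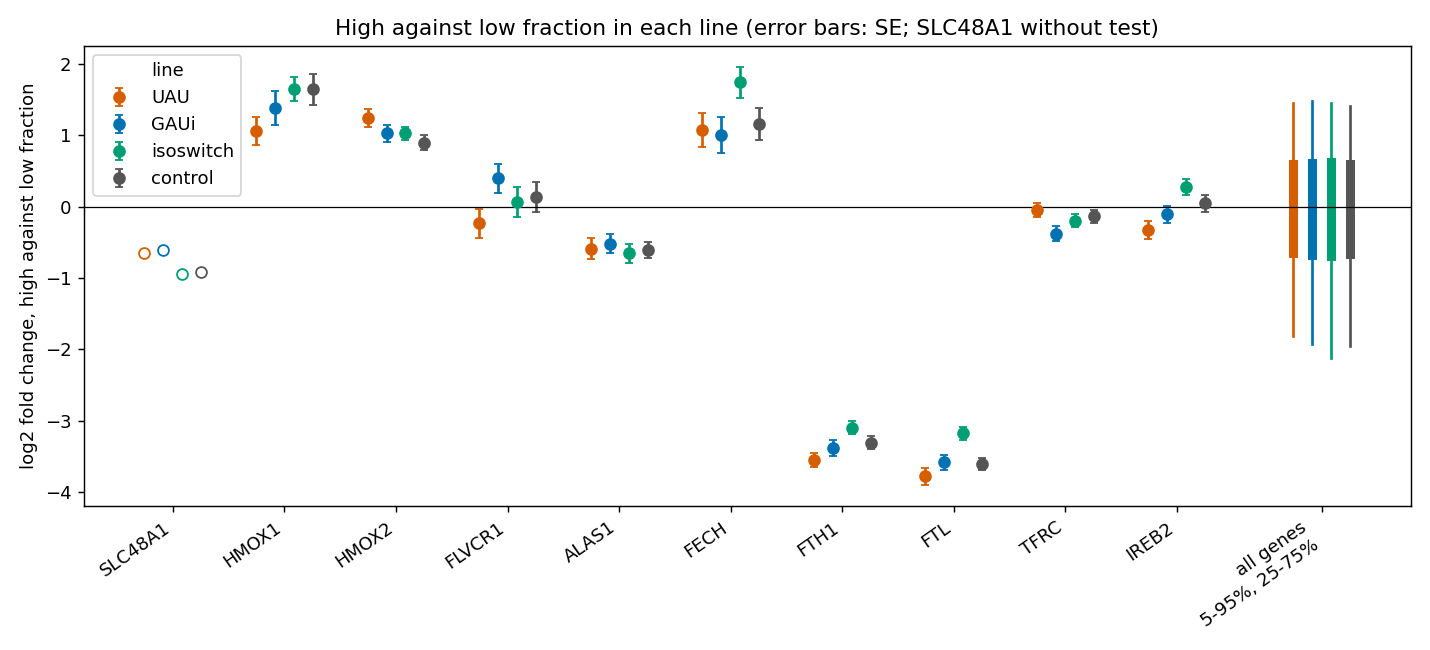
Log2 fold change of the high against the low fraction for each gene in the UAU, GAUi, isoswitch and control lines, with the SE of the fit as error bars (SLC48A1 open, without test) and, at the right, the 5th to 95th and 25th to 75th percentiles of all genes tested. FTH1 and FTL lie between -3.78 and -3.10, below the 5th percentile of every line, and HMOX1, HMOX2 and FECH lie above 0.

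FTH1 rose in both the low and the high fraction of the UAU line relative to control, and FTL rose in the high fraction. FTH1 in the low fraction had 3585, 3329 and 2861 CPM in UAU, 2825, 2223 and 2309 CPM in GAUi and 1543, 2005 and 1881 CPM in isoswitch, against the control values above. Every UAU library lay above every control library, as did every GAUi library, and isoswitch overlapped control. As a background, 9.77% of genes in UAU and 13.3% in GAUi had every library above every control library there. FTH1 rose in UAU with a log2 fold change of 0.67 (SE 0.118, adjusted p = 0.0142), the single call among the 9 tested genes, where 0.691% of genes passed. That call was lost without control library A (adjusted p between 8.3e-09 and 0.127 over the alternatives) or UAU library B, with a replicate block and in a fit of only the 2 lines compared. The value for FTH1 was 0.25 in GAUi (adjusted p = 0.266), and isoswitch had -0.18 (adjusted p = 0.521).

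FTL in the low fraction had 5257, 4036 and 3496 CPM in UAU, 3470, 2703 and 2798 CPM in GAUi and 1767, 2388 and 2041 CPM in isoswitch, against 2740, 2875 and 2844 CPM in control. Every UAU library lay above and every isoswitch library below every control library, as for 9.77% and 8.22% of genes, but neither difference passed. The log2 fold change was 0.57 in UAU (SE 0.138, adjusted p = 0.0628) and -0.47 in isoswitch (SE 0.138, adjusted p = 0.08), and 0.05 in GAUi (adjusted p = 0.885). None of the 9 genes was called in the low fraction in GAUi, where 3.4% of genes passed, or in isoswitch, where 2.58% passed (edgeR). At an unadjusted p under 0.05 the count was 1 of the 9 genes in each, and DESeq2 called 0 in GAUi and 1 in isoswitch.

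FTH1 in the high fraction had 271, 277 and 265 CPM in UAU, 255, 218 and 233 CPM in GAUi and 214, 216 and 223 CPM in isoswitch, and the UAU libraries alone lay apart from the control libraries. FTL had 314, 303 and 291 CPM in UAU, 260, 240 and 250 CPM in GAUi and 245, 236 and 223 CPM in isoswitch, with the same pattern. In that fraction 17.7% of genes had every UAU library above every control library. In UAU both rose, FTH1 by 0.36 (SE 0.0802, adjusted p = 0.00133) and FTL by 0.34 (SE 0.0757, adjusted p = 0.0016) on the log2 scale. FTH1 and FTL did not pass in GAUi (0.14 and 0.04) or isoswitch (0.02 and -0.06), with adjusted p of 0.27 and 0.785 in GAUi and 0.917 and 0.686 in isoswitch.

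In total RNA the ferritin differences were smaller. FTH1 had 1235, 1357 and 1358 CPM in UAU, 1192, 1099 and 1084 CPM in GAUi and 1229, 1129 and 1193 CPM in isoswitch, against 1199, 1175 and 1204 CPM in control. FTL had 1891, 1900 and 2014 CPM in UAU, 1806, 1551 and 1613 CPM in GAUi and 1607, 1608 and 1554 CPM in isoswitch, against 1744, 1628 and 1756 CPM in control. UAU libraries lay above the control libraries for both genes, as for 9.78% of genes. The log2 fold changes were 0.17 for FTH1 (adjusted p = 0.286) and 0.21 for FTL (adjusted p = 0.18), and neither passed. FTH1 and FTL varied together, with a Pearson r of 0.928 over the 36 libraries on log2 CPM centred within each fraction. Over these libraries the 2 genes share depth, line and possibly pseudogene reads, so the r is a description.

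The changed lines also differed from each other in ferritin. In the low fraction, isoswitch was below UAU by -0.85 for FTH1 (SE 0.118, adjusted p = 0.000546) and by -1.05 for FTL (SE 0.139, adjusted p = 0.000354), where 4.25% of genes passed. The 2 lines did not overlap there for either gene, with no share of all genes counted beside it. In the high fraction the same comparison gave -0.34 for FTH1 (adjusted p = 0.00106) and -0.39 for FTL (adjusted p = 0.000145), where 41.6% of genes passed. In total RNA FTL was lower in isoswitch than in UAU by -0.30 (adjusted p = 0.0236), where 3.42% of genes passed, and this call was lost when any isoswitch library, UAU library B or UAU library C was left out (adjusted p up to 0.123). UAU exceeded GAUi for FTL in the low fraction by 0.52 (adjusted p = 0.0385), where 3.95% of genes passed, and in the high fraction by 0.29 (adjusted p = 0.00794), where 17.7% passed. The first of these calls was lost with a replicate block and without UAU library A or B or GAUi library B or C (adjusted p up to 0.196), and the second without GAUi library B (adjusted p = 0.0559). In total RNA UAU exceeded GAUi by 0.26 for FTH1 (adjusted p = 0.0173) and by 0.26 for FTL (adjusted p = 0.0179), where 14.8% of genes passed. Both calls were lost without UAU library C and in a fit of only the 2 lines compared, and that of FTH1 also without UAU library B (adjusted p up to 0.139 for FTH1 and 0.141 for FTL). Isoswitch against GAUi passed for neither ferritin gene in any fraction. In total RNA none of the 9 genes passed between them, where 0.113% of genes did (edgeR, with 1 of the 9 at an unadjusted p under 0.05 and 0 called by DESeq2). That share rested on single libraries, with 14 genes called as reported, 642 without GAUi library A, 179 without GAUi library C, and 0 to 3 without any 1 isoswitch library, and none of the 9 genes was called in any of these. In the low fraction 0 of 12445 genes passed between them (edgeR, with 890 genes at an unadjusted p under 0.05 and 4 called by DESeq2).

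The effect of tRNAIleUAU overexpression was then compared between cells with CRISPRi against Ile GAU (isoswitch against GAUi) and cells with CRISPRi against eGFP (UAU against control), a test added after values had been seen. For FTH1 in the low fraction the effect was -0.43 in Ile GAU cells (adjusted p = 0.438) and 0.67 in eGFP cells. The difference between the effects passed for FTH1 and FTL alone among the 9 genes in the low fraction, where 0.233% of genes passed, for FTH1, FTL, HMOX1 and IREB2 in the high fraction, where 35.7% passed, and for none in total RNA, where 0.0243% passed. The values stand in the closing section with their alternatives.

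Change of the high-to-low ratio between a line and control was tested for all 9 genes, and none passed (edgeR). Of all genes, 6.53% passed in UAU, 0.196% in GAUi and 0.00784% in isoswitch. At an unadjusted p under 0.05 the count was 2 of the 9 genes in UAU, 0 in GAUi and 1 in isoswitch, and DESeq2 called 0 in each. FTH1 had -0.30 in UAU (SE 0.144, adjusted p = 0.229), -0.10 in GAUi (SE 0.144, adjusted p = 0.851) and 0.22 in isoswitch (SE 0.144, adjusted p = 0.56). FTL had -0.23 in UAU (SE 0.161, adjusted p = 0.455), -0.01 in GAUi (SE 0.161, adjusted p = 0.993) and 0.44 in isoswitch (SE 0.161, adjusted p = 0.252). IREB2 had -0.43 in UAU (SE 0.173, adjusted p = 0.132), and HMOX1 had -0.63 (SE 0.312, adjusted p = 0.247). With SEs of this size, a change of ferritin loading against control was not resolved in any line. The ratio was not tested between the changed lines.

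**Figure D3:**
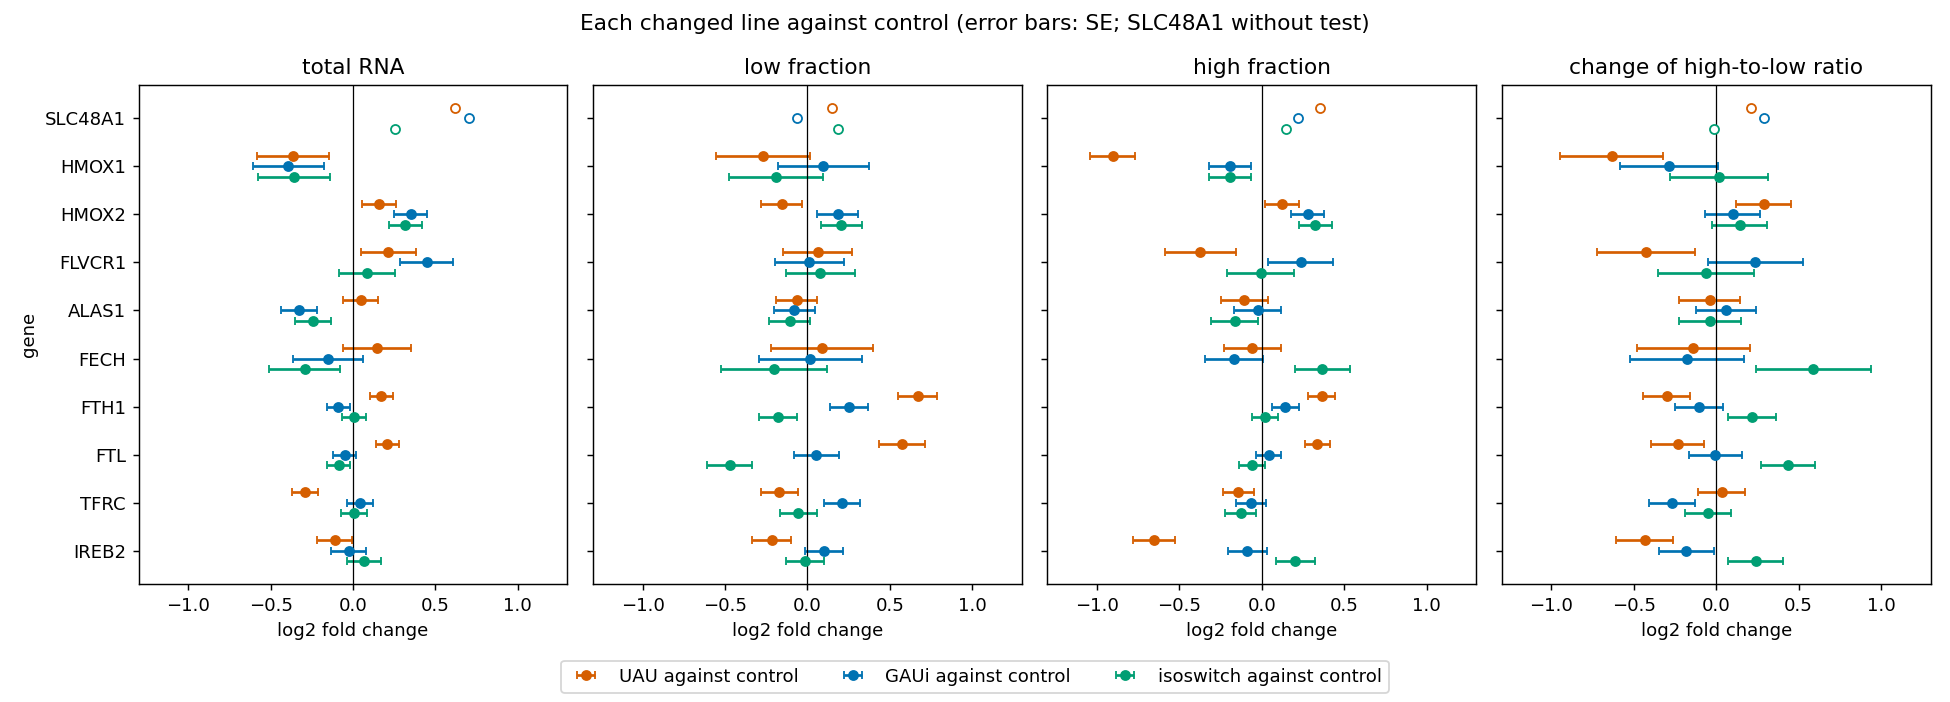
Log2 fold change of each gene in the UAU, GAUi and isoswitch lines against control in total RNA, the low and the high fraction, and the change of the high-to-low ratio, with the SE of the fit as error bars (SLC48A1 open, without test). In the high fraction HMOX1 (-0.90) and IREB2 (-0.65) in UAU lie farthest from 0, and in the low fraction FTH1 (0.67) and FTL (0.57) in UAU do.

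HMOX1, which degrades haem and is induced by it through loss of the repressor BACH1, was lower in the high fraction of UAU than in control. It had 14.8, 15.3 and 17.6 CPM in UAU, 24.2, 26.03 and 29.2 CPM in GAUi and 24.4, 30.9 and 24.7 CPM in isoswitch, against 27.2, 28.6 and 35.96 CPM in control. Every UAU library lay below every other library of that fraction, and GAUi and isoswitch overlapped control. Against control alone, 21.4% of genes had every UAU library lower. HMOX1 fell in UAU with a log2 fold change of -0.90 (SE 0.137, adjusted p = 2.98e-05), with -0.19 in GAUi (adjusted p = 0.364), while isoswitch also had -0.19 (adjusted p = 0.369). In UAU 4 of the 9 tested genes passed in the high fraction, FTH1 and FTL higher and HMOX1 and IREB2 lower, where 28.7% of all genes passed. Isoswitch exceeded UAU by 0.71 (SE 0.140, adjusted p = 0.000186), and UAU was below GAUi by -0.71 (SE 0.140, adjusted p = 0.000875).

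In total RNA HMOX1 had 15.1, 12.5 and 11.54 CPM in UAU, 16.5, 7.07 and 15.7 CPM in GAUi and 11.6, 13.03 and 14.9 CPM in isoswitch, against 14.2, 18.8 and 18.4 CPM in control. All 3 lines overlapped control, with log2 fold changes of -0.36, -0.39 and -0.36 in UAU, GAUi and isoswitch that did not pass (adjusted p = 0.507, 0.269 and 0.457). GAUi library B, at 7.07 CPM, stood well below the other 2 GAUi libraries. HMOX1 in the low fraction ran from 4.81 CPM, in UAU library A, to 12.8 CPM, in control library B, and all lines overlapped.

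IREB2, which encodes the iron regulatory protein IRP2, was likewise lower in the high fraction of UAU. It had 22.9, 18.6 and 23.6 CPM in UAU, 33.5, 34.04 and 30.8 CPM in GAUi and 39.0, 36.6 and 46.2 CPM in isoswitch, against 36.8, 29.9 and 38.3 CPM in control. Every UAU library lay below every other library, and the GAUi and isoswitch ranges each overlapped that of control. The share of genes with every UAU library below every control library was 21.4%. IREB2 fell in UAU with a log2 fold change of -0.65 (SE 0.125, adjusted p = 0.000349), with -0.09 in GAUi (adjusted p = 0.702), while isoswitch had 0.20 (adjusted p = 0.286). Isoswitch exceeded UAU by 0.86 (SE 0.125, adjusted p = 4.19e-06). In total RNA IREB2 averaged 46.5 ± 4.46 CPM in UAU, 50.6 ± 4.95 in GAUi and 53.0 ± 5.34 in isoswitch, against 51.2 ± 2.97 in control (SD, n = 3 each), and no line passed.

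HMOX2, the constitutive haem oxygenase, rose in total RNA of GAUi and in the high fraction of isoswitch. In total RNA it had 40.2, 44.9 and 48.5 CPM in UAU, 54.1, 46.8 and 55.6 CPM in GAUi and 52.3, 47.8 and 50.6 CPM in isoswitch, against 43.0, 38.7 and 40.5 CPM in control. GAUi and isoswitch libraries lay above all control libraries, as for 13% and 12.6% of genes, and UAU overlapped them. HMOX2 rose in GAUi by 0.35 (SE 0.101, adjusted p = 0.0318), the single call of the 9 genes, where 10.1% of genes passed, and had 0.32 in isoswitch (SE 0.101, adjusted p = 0.0944). HMOX2 in the high fraction had 61.6, 70.9 and 85.4 CPM in UAU, 79.2, 76.9 and 89.5 CPM in GAUi and 89.7, 82.5 and 83.2 CPM in isoswitch, against 66.5, 70.0 and 66.3 CPM in control. HMOX2 rose there in isoswitch by 0.32 (SE 0.102, adjusted p = 0.0369), the single call of the 9 genes, where 11% of genes passed. GAUi had 0.28 (SE 0.102, adjusted p = 0.0793), and in the high fraction of GAUi none of the 9 genes passed, where 10.1% of genes did (edgeR, with 1 of the 9 at an unadjusted p under 0.05 and 0 called by DESeq2).

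The HMOX2 calls were near the threshold. The GAUi call in total RNA was lost without any of the control libraries or GAUi library C and in a fit of only the 2 lines compared, and the isoswitch call in the high fraction was lost without any of the 6 libraries (adjusted p up to 0.134 and 0.155). In total RNA none of the 9 genes passed in UAU, where 0.914% of genes did, or in isoswitch, where 4.05% did (edgeR). At an unadjusted p under 0.05 the count was 3 of the 9 genes in UAU and 2 in isoswitch, and DESeq2 called 1 and 0.

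TFRC, the transferrin receptor, was low in total RNA of UAU, with 101, 103 and 100 CPM in UAU, 138, 122 and 132 CPM in GAUi and 130, 124 and 124 CPM in isoswitch, against 120, 126 and 134 CPM in control. Every UAU library lay below every other library, and 16.3% of genes had every UAU library below every control library. The log2 fold change against control was -0.29 (SE 0.0798, adjusted p = 0.0982), so the difference did not pass, whereas UAU against GAUi passed at -0.33 (SE 0.0796, adjusted p = 0.00893), where 14.8% of genes passed, a call lost in a fit of only the 2 lines compared (adjusted p = 0.08). Isoswitch exceeded UAU by 0.30 (adjusted p = 0.0439), a call lost in 9 of 11 alternatives, namely library totals, no filter, the replicate block and the fits without any 1 library of either line (adjusted p up to 0.176). TFRC ran from 53.4 to 77.2 CPM in the low fraction and in the high fraction from 49.9 to 64.1 CPM, with no call against control.

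FLVCR1, a membrane transporter described as a haem exporter, had 8.40, 10.5 and 10.3 CPM in total RNA of GAUi, against 7.89, 6.57 and 6.80 CPM in control. The GAUi libraries lay above the control libraries, as for 13% of genes, with a log2 fold change of 0.45 that did not pass (SE 0.162, adjusted p = 0.0868). Its divergent partner FLVCR1-AS1 held at most 23 counts in a library. UAU was below GAUi in the high fraction by -0.61 (SE 0.211, adjusted p = 0.0453), with 5.63, 5.86 and 5.31 CPM in UAU against 7.20, 9.72 and 8.85 CPM in GAUi. That call was lost with DESeq2 and without any UAU library or GAUi library B or C (adjusted p up to 0.191).

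The enzymes at the start and the end of haem synthesis passed against control in no line or fraction. ALAS1, which makes the first committed intermediate, had 22.4, 24.4 and 26.1 CPM in total RNA of GAUi and 27.5, 23.7 and 24.9 CPM in isoswitch, against 28.4, 32.3 and 30.3 CPM in control. Both lines lay below all control libraries, as for 13.1% of genes in GAUi and 17.4% in isoswitch. The values were -0.33 in GAUi (SE 0.109, adjusted p = 0.0612) and -0.24 in isoswitch (SE 0.109, adjusted p = 0.275), and neither passed. UAU had 29.1, 30.1 and 32.96 CPM and exceeded GAUi by 0.38 (SE 0.109, adjusted p = 0.0256), a call lost without UAU library B or C and in a fit of only the 2 lines compared (adjusted p up to 0.123). FECH, the ferrochelatase, had 14.5, 10.2 and 12.8 CPM in the high fraction of isoswitch, against 9.60, 9.43 and 9.99 CPM in control. The isoswitch libraries lay above the control libraries, as for 14% of genes, at 0.37 (SE 0.167, adjusted p = 0.165). Isoswitch exceeded GAUi by 0.54 (SE 0.172, adjusted p = 0.034), where 15.8% of genes passed, and UAU by 0.42 (SE 0.171, adjusted p = 0.0477), with calls lost in 5 and 8 of 11 alternatives, among them those without isoswitch library A or C.

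Around the 10 genes, 76 further genes of haem and iron metabolism in 8 lists were examined in the same fits, of which 67 or 68 were tested in a fraction. Within total RNA 0 were higher and 1 lower in UAU, 4 higher and 4 lower in GAUi, and 1 higher and 3 lower in isoswitch, where 0.914%, 10.1% and 4.05% of all genes passed in UAU, GAUi and isoswitch. Within the low fraction 0 were higher and 2 lower in UAU, 0 higher and 1 lower in GAUi, and 0 either way in isoswitch, where 0.691%, 3.4% and 2.58% of all genes passed. Within the high fraction 6 were higher and 19 lower in UAU, 2 higher and 8 lower in GAUi, and 1 higher and 6 lower in isoswitch. Of all 11979 genes tested there, 28.7% passed in UAU (1570 higher and 1862 lower), 10.1% in GAUi (558 and 657) and 11% in isoswitch (440 and 882). The median log2 fold change of the lists in the high fraction was -0.12 in UAU, -0.05 in GAUi and -0.05 in isoswitch, against -0.003 in UAU, -0.005 in GAUi and -0.005 in isoswitch over all genes. For the change of the high-to-low ratio, 1 was higher and 7 lower in UAU, where 6.53% of all genes passed. The 7 included 4 of the 12 BACH1 and NRF2 genes. In GAUi 1 was higher and 0 lower, and in isoswitch 0 passed, where 0.196% and 0.00784% of all genes did.

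Of 12 genes of the BACH1 and NRF2 system, to which HMOX1 belongs, 7 fell and 0 rose in the high fraction of UAU (median -0.39), where 28.7% of all genes passed. In GAUi 5 fell and 0 rose (median -0.32), where 10.1% passed, and in isoswitch 2 fell and 0 rose (median -0.13), where 11% passed. In total RNA 0 of the 12 passed in UAU, 1 rose and 1 fell in GAUi, and 1 fell in isoswitch. The shares of all genes there were 0.914%, 10.1% and 4.05%. In the low fraction 0 of the 12 passed in any line, where 0.691%, 3.4% and 2.58% of all genes did in UAU, GAUi and isoswitch. NFE2L2, which encodes NRF2 itself, averaged 63.4 ± 2.69 CPM in the high fraction of UAU and 80.2 ± 3.32 in that of GAUi, against 110 ± 3.31 in control (SD, n = 3 each). It stood at -0.78 in UAU (adjusted p = 1.6e-06) and -0.45 in GAUi (adjusted p = 0.00128). TXNRD1, thioredoxin reductase, was at -0.40 in UAU (adjusted p = 0.000217) and -0.26 in GAUi (adjusted p = 0.0221). SLC7A11, the cystine importer, was at -0.45 in UAU (adjusted p = 0.000508) and -0.31 in GAUi (adjusted p = 0.024). SRXN1, sulfiredoxin, fell in isoswitch alone, at -0.52 (adjusted p = 0.00153), and its tests between the changed lines are not given here. It averaged 188.5 ± 7.81 CPM in UAU, 169.1 ± 2.92 in GAUi and 115.6 ± 23.5 in isoswitch, against 164.5 ± 12.89 in control (SD, n = 3 each). Means of SLC7A11 and TXNRD1 were also lower in total RNA. SLC7A11 had 140.2 ± 5.79 CPM in UAU and 147.4 ± 7.16 in GAUi, against 175.3 ± 10.1 in control. TXNRD1 had 213.4 ± 3.13 and 217.8 ± 47.8, against 249.1 ± 1.41 CPM. NFE2L2 had 110.7 ± 8.76 and 105.4 ± 11.1, against 113.9 ± 5.61 CPM. The list is a description of these libraries, since its genes were chosen with results known.

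**Figure D4:**
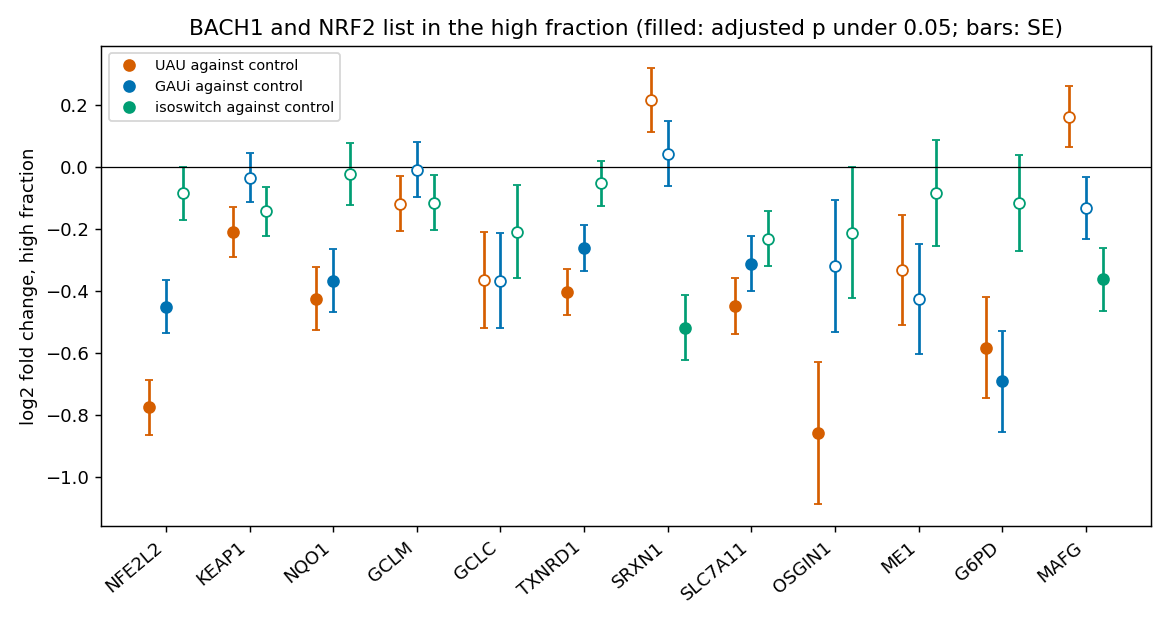
Log2 fold change in the high fraction of 12 genes of the BACH1 and NRF2 list, in UAU, GAUi and isoswitch against control, with the SE of the fit as error bars and filled points for an adjusted p under 0.05. The 7 filled UAU points and the 5 filled GAUi points lie below 0, with NFE2L2 at -0.78 in UAU and -0.45 in GAUi.

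In the haem synthesis list 2 of 11 tested genes rose and 2 fell in the high fraction of UAU, where 28.7% of all genes passed. For the change of the high-to-low ratio, 1 of the 11 passed in UAU, where 6.53% of genes did, with CPOX at -0.69 (adjusted p = 0.0389). In the high fraction of UAU TMEM14C, which helps move haem precursors into mitochondria, rose by 0.59 (adjusted p = 0.000613) and UROS, uroporphyrinogen synthase, by 0.35 (adjusted p = 0.0256). There CPOX, coproporphyrinogen oxidase, stood at -0.54 (adjusted p = 0.000858) and CLPX, an unfoldase that acts on ALAS1, at -0.58 (adjusted p = 0.0445). Among haem transport and breakdown genes, POR, the electron donor of the haem oxygenases, fell in total RNA of GAUi (-0.92, adjusted p = 0.000189) and isoswitch (-0.67, adjusted p = 0.00348). It averaged 12.3 ± 1.88 CPM in GAUi and 14.2 ± 1.36 in isoswitch, against 23.01 ± 0.224 in control (SD, n = 3 each). BLVRA, biliverdin reductase, fell in total RNA of the same lines, with -0.57 for GAUi (adjusted p = 0.0194) and -0.69 for isoswitch (adjusted p = 0.0119).

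Of 7 tested iron uptake genes, 2 fell in the high fraction of UAU, a share close to the 28.7% of all genes that passed. CD44, a surface glycoprotein reported to carry iron-bound hyaluronan into cells, was at -0.69 (adjusted p = 2.35e-05), and SLC39A14, a metal importer, at -0.78 (adjusted p = 0.000351). LRP1, the receptor for haem-haemopexin, rose in total RNA of GAUi (0.93, adjusted p = 0.0131) and isoswitch (1.16, adjusted p = 0.00418). It had a low level of 6.26 ± 1.46 CPM in GAUi and 7.32 ± 1.17 CPM in isoswitch, against 3.30 ± 0.101 CPM in control (SD, n = 3 each). SLC11A2, the ferrous iron transporter, fell in the high fraction of isoswitch by 0.33 on the log2 scale (adjusted p = 0.0263).

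Of 4 tested iron storage and export genes, 3 fell in the high fraction of UAU, where 28.7% of all genes passed. The iron chaperone PCBP2 was at -0.46 (adjusted p = 0.000136), PCBP1 at -0.29 (adjusted p = 0.0468) and NCOA4, the receptor that delivers ferritin to autophagy, at -0.38 (adjusted p = 0.00985). PCBP1 rose in total RNA of GAUi (0.46, adjusted p = 0.00532) and in the high fraction of isoswitch (0.32, adjusted p = 0.0464). The ferroxidase gene CP fell in the high fraction of GAUi (-0.81, adjusted p = 0.00276). ACO1, which encodes IRP1, was the single call of 7 tested iron regulation genes in the high fraction of UAU, where 28.7% of all genes passed, at -0.61 (adjusted p = 0.00105) with 18.2 ± 0.968 CPM in UAU against 28.1 ± 5.50 CPM in control (SD, n = 3 each).

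Of 14 tested genes of mitochondrial iron and iron-sulphur clusters, 4 rose and 1 fell in the high fraction of UAU, where 28.7% of all genes passed. SLC25A37, the mitochondrial iron importer mitoferrin, rose there by 0.48 (adjusted p = 0.000666) and fell in the high fraction of isoswitch, at -0.51 (adjusted p = 0.00103), and in total RNA of GAUi, at -0.50 (adjusted p = 0.00209). ISCA2, an iron-sulphur assembly factor, rose by 0.47 in the high fraction of UAU (adjusted p = 0.00513), and GLRX5, which carries clusters, by 0.30 in that of GAUi (adjusted p = 0.0197). CISD1, an iron-sulphur protein of the outer mitochondrial membrane, fell in the low fraction of UAU (-0.45, adjusted p = 0.0296) and GAUi (-0.35, adjusted p = 0.0339) and rose in the high fraction of UAU (0.21, adjusted p = 0.0376). Among 4 other mRNAs with a known IRE, EPAS1, which encodes HIF-2 alpha, fell in UAU in total RNA (-0.66, adjusted p = 0.025), the low fraction (-0.69, adjusted p = 0.0106) and the high fraction (-0.65, adjusted p = 0.0101). CDC42BPA, a kinase, fell in the high fraction of UAU (-0.23, adjusted p = 0.0358).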

How the data were processed

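Libraries were made with a 3' end kit, per the labels' protocols. The authors deposited raw counts per gene symbol for each library. STAR, featureCounts, DESeq2 and hg38 are listed per the submitters' processing notes, with roles, versions, annotation and strand setting not given in the sources used here. A 3' end count does not scale with transcript length, but levels are compared only within a gene. No molecular identifiers were used, so depth gives counting error only.

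Levels are CPM with TMM factors over all 36 libraries. Tests used edgeR 4.0.16 (quasi-likelihood, R 4.3.3) on the counts, with filterByExpr, TMM and Benjamini-Hochberg adjustment over all genes tested, and genes passed at an adjusted p under 0.05. Lines were compared within a fraction on its 12 libraries, fractions of a line were fitted on its 9 libraries, and the change of the high-to-low ratio on 24 libraries. The SE was taken as the size of the log2 fold change over the root of its F. The interaction of both changes was added after values were seen. Fits were tested on simulated data. DESeq2 1.42.0, library totals, no filter, a replicate block, fits of only the groups compared, total RNA instead of the low fraction, and leaving out each library were tried as alternatives.

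The genes and lists were chosen with earlier results of these data known. Named were all 10 genes, up to 4 genes per wider list with the smallest p among those called against control, and the 5 genes most like SLC48A1 (log2 CPM with a prior count of 2, average log2 CPM of at least 3). A gene that this rule also names is not reported here. A check of replicate letters gave no clear sign that they pair the libraries, but it cannot exclude pairing, and the tests treat the libraries as unpaired. Replicates of a group differed by more than counting error, and unevenly so. Chi-square per degree of freedom was 8.53 to 23.8 between total RNA libraries of GAUi, against 1.86 to 2.41 between those of control. In the low fraction of control it was 15.8 and 13.7 for the pairs with library B, against 2.88 for A with C.

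In bulk RNA, fewer cells that express a gene and less RNA per cell cannot be told apart. Sequences are from RefSeq (GRCh38.p14).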

Additional observations from a re-analysis of the deposited data

Results flagged for a closer look

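Between the lines, the effect of tRNAIleUAU overexpression was compared in cells with CRISPRi against Ile GAU (isoswitch against GAUi) and in cells with CRISPRi against eGFP (UAU against control). The values are the first difference minus the second, on the log2 scale. They were computed after levels had been seen.

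In the low-translating fraction the effects differed by -1.10 for FTH1 (SE 0.166, adjusted p = 0.025) and by -1.10 for FTL (SE 0.195, adjusted p = 0.025, edgeR), where 0.233% of 12445 genes passed. With tRNAIleUAU, FTH1 had -0.43 in isoswitch against GAUi and 0.67 in UAU against control, and FTL had -0.53 and 0.57. Both calls were lost in several alternatives, FTH1 in 6 of 16 and FTL in 7 of 16, among them the fits with a replicate block, without UAU library B, without GAUi libraries A or C and without isoswitch libraries A or C (adjusted p up to 0.161).

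In the high-translating fraction the effects differed by -0.49 for FTH1 (adjusted p = 0.00138), by -0.44 for FTL (adjusted p = 0.00226), by 0.95 for IREB2 (adjusted p = 0.000117) and by 0.90 for HMOX1 (adjusted p = 0.000515), where 35.7% of 11979 genes passed. FTL lost its call when library totals replaced TMM factors (adjusted p = 0.0535), and the other 3 passed in all 16 alternatives run. In total RNA none of the 9 tested genes passed, where 0.0243% of genes did (edgeR, with 3 of the 9 at an unadjusted p under 0.05 and 0 called by DESeq2). SLC48A1, given without a test, had a difference of -1.07 in total RNA, 0.10 in the low fraction and -0.42 in the high fraction.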

How the results depend on the processing

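Counts of the 9 tested genes that passed against control moved as follows. In total RNA, UAU had 1 with DESeq2 and 3 in the fit of only the groups compared, GAUi had 0 in that fit and isoswitch 1, against 0, 1 and 0 as reported. Leaving out a library gave 0 to 3 in GAUi (3 without GAUi library A). In the low fraction, UAU had 2 with DESeq2, 2 with no filter, 0 with the replicate block and 0 in the fit of only the groups compared, against 1 reported, and isoswitch had 1 with DESeq2 and 1 with no filter, against 0. Leaving out a library gave 0 to 2 in UAU (2 without control library B) and 0 to 1 in isoswitch (1 without control library B or isoswitch library B). In the high fraction, GAUi had 1 in the fit of only the groups compared, against 0, and isoswitch had 0 whichever library was left out, against 1. The cause was not tested. Replicate letters gave no clear sign of pairing, though the check cannot exclude it. Of correlations between same-letter libraries, 8 of 54 between lines and 6 of 36 between fractions exceeded 0.1. The replicate block kept 53 of 59 called values of the 9 genes, DESeq2 55, library totals 57 and no filter 56. The fit of only the groups compared kept 46 of 53, the high fraction set against total RNA 22 of 27 (4 lost and 1 turned), and leaving out a library 328 of 390. IREB2 in isoswitch turned to -0.41 when total RNA replaced the low fraction, against 0.28.

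FTH1 and FTL, high against low in control, passed in all 12 alternatives (-3.38 to -2.50 and -3.62 to -2.83), as did HMOX1, IREB2, FTH1 and FTL in the high fraction of UAU in all 11. SLC48A1 in total RNA ran from 0.57 to 0.70 in UAU, 0.67 to 0.75 in GAUi and 0.19 to 0.31 in isoswitch. Genes called in total RNA changed from 113 to 236 with no filter and to 916 in the fit of only the groups compared in UAU, to 329 from 1248 in GAUi and to 1898 from 500 in isoswitch. Leaving out a library gave 25 to 43 in UAU, 531 to 2134 in GAUi (2134 without GAUi library A) and 194 to 268 in isoswitch. In the low fraction they were 158 with DESeq2, 339 with no filter, 22 with the block and 0 with only the groups compared in UAU (86 reported), 743 with no filter and 271 with only the groups compared in GAUi (423), and 538 and 105 in isoswitch (321), and leaving out a library gave 6 to 209, 177 to 760 and 127 to 675, each highest without control library B. In the high fraction it gave 2371 to 3809 (3432 reported), 563 to 980 (1215) and 651 to 1333 (1322). For the change of the high-to-low ratio they were 166, 0, 103 and 90 in GAUi with DESeq2, library totals, no filter and total RNA (25), and 69, 215 and 0 in isoswitch with DESeq2, no filter and total RNA (1), and leaving out a library gave 367 to 1189 in UAU (833), 0 to 190 in GAUi and 0 to 469 in isoswitch, the last 2 highest without low control library B. With library totals the median of all genes moved to 0.17 for the interaction in the high fraction. Depth limits FECH, FLVCR1 and HMOX1 most.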
